A study of Mus musculus with 8 samples.

Results

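The 10 genes followed here, Lgr5, Ascl2, Olfm4, Smoc2, Aqp4, Lgr4, Msi1, Prom1, Tnfrsf19 and Sox9, are widely used to mark the stem cells of the intestinal crypt. They were chosen by name, each as the row of the deposited sheet whose gene symbol equals the listed one. All 10 were found among 48440 gene rows, and all 10 passed the filter on low values that left 17523 genes for testing. RNA was sequenced from small intestine adenomas, 1 library per mouse, of 4 ApcMin/+/14-3-3σ-/- mice aged 144 to 148 days and 4 ApcMin/+ mice aged 256 to 282 days, all on a C57BL/6 background. Both genotypes share the Min mutation in Apc, a tumour suppressor, and the first also lacks both copies of Sfn, which encodes 14-3-3σ. They are called knockout and ApcMin/+ adenomas here. The knockout mice were younger in every case, so genotype and age cannot be told apart.

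Stem cells at the base of the crypt divide throughout life and feed all lineages of the gut epithelium. They depend on Wnt signalling, in which R-spondin proteins bind the receptors LGR4 and LGR5 and protect the Wnt receptors from the ubiquitin ligases RNF43 and ZNRF3. Loss of APC activates this pathway without ligand, and adenomas of ApcMin/+ mice accordingly contain cells that express crypt stem cell genes. The 10 genes encode receptors (Lgr5, Lgr4, Tnfrsf19), transcription factors (Ascl2, Sox9), secreted proteins (Olfm4, Smoc2), membrane proteins (Aqp4, Prom1) and an RNA-binding protein (Msi1). In bulk tissue, fewer cells of a type and less RNA per cell cannot be told apart.

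The values are read counts that the authors had normalised with RUVs, and depth before that step is unknown. They summed to between 34182800 and 46707800 per library. Sfn, the targeted gene, lay at 0 or 1 in the 4 knockout libraries and between 6585 and 15968 in the 4 ApcMin/+ libraries (two-sided exact permutation p = 0.0286, the smallest that 4 against 4 libraries allow). The mouse number in the name of 1 knockout column belongs, in the labels, to a mouse of the other genotype. That library is called the unnumbered knockout library and is listed after knockout replicates 2, 3 and 4 throughout. In the library names, ApcMin/+ replicates 3 and 4 carry the prefix NG-23849, and the other 6 libraries share the prefix NG-23101. Xist, a noncoding RNA transcribed from the inactive X, exceeded 1000 in 1 knockout library, the unnumbered one, and in ApcMin/+ replicates 2 and 3. Epithelial transcripts were abundant in every library: Epcam lay between 68883 and 88296 in knockout libraries and between 77517 and 111180 in ApcMin/+ libraries.

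None of the 10 genes passed the test between genotypes. At a limma adjusted p under 0.05 over all genes tested, 0 of 10 were called, against a background of 58 of 17523 genes (0.331%). At an unadjusted limma p under 0.05, 4 of 10 passed (Olfm4, Aqp4, Ascl2 and Sox9), against 18.9% of all genes. No overlap between knockout and ApcMin/+ libraries was seen for 4 of 10 (Olfm4, Aqp4, Ascl2 and Prom1), against 16.1% of all genes. The log2 differences, knockout minus ApcMin/+ on the log2(value + 1) scale, ran from -0.68 for Ascl2 to 1.60 for Aqp4. Their median was 0.03, with 6 of 10 above 0. Over all genes tested the median was -0.07, with 7179 of 17523 above 0. Differences over 1 in size were found for Aqp4 and Olfm4, 20% of the members, against 5.33% of all genes.

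**Figure D1:**
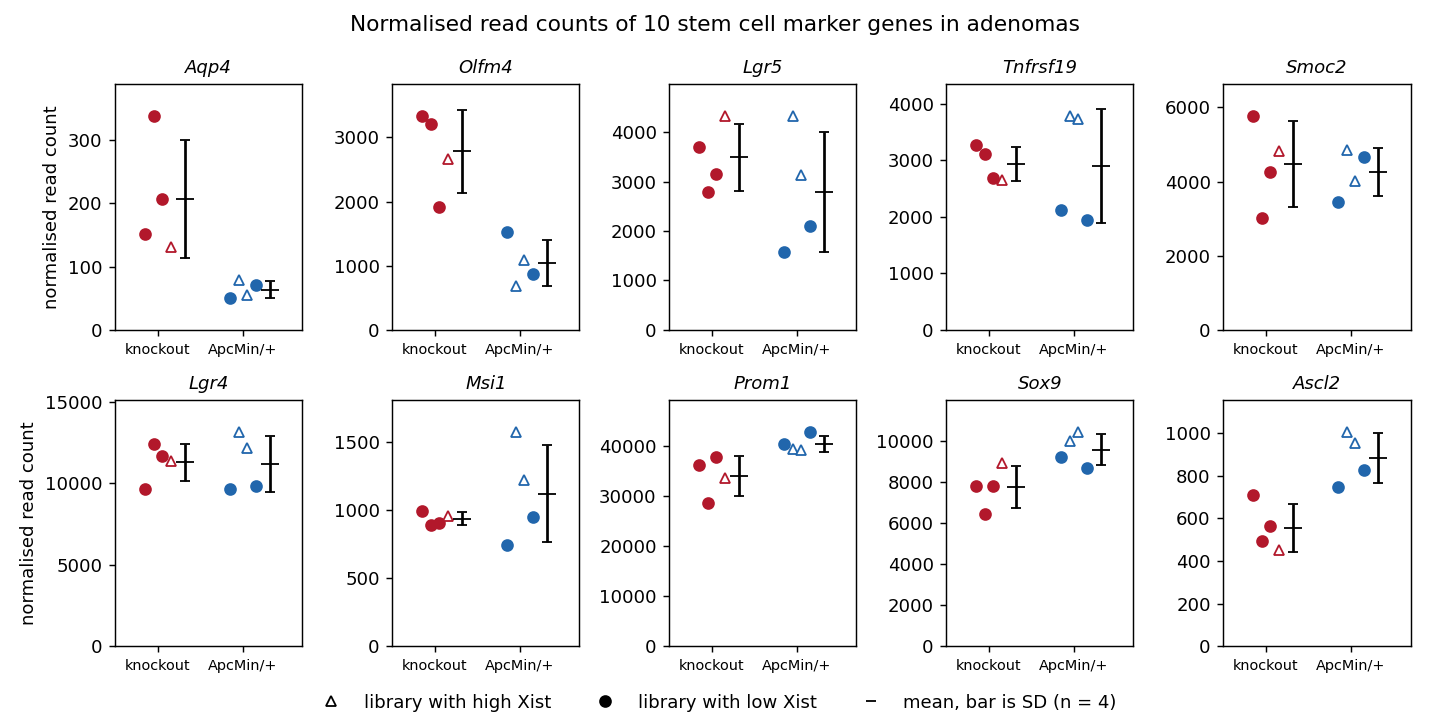
Normalised read counts (y axis, from 0) of the 10 stem cell marker genes in each library, with the 4 knockout adenomas left of the 4 ApcMin/+ adenomas, the mean and SD beside them, and open triangles for libraries with high Xist. Aqp4 and Olfm4 lie higher in all knockout libraries, Ascl2 and Prom1 lie lower, and the other 6 genes overlap.

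Lgr5, an R-spondin receptor and the defining marker of crypt base columnar stem cells, overlapped between the genotypes. Its normalised read count was 3692, 2784, 3151 and 4334 in the knockout libraries, against 1572, 4324, 3135 and 2112 in ApcMin/+ replicates 1 to 4. The means were 3490 ± 675 in knockout and 2786 ± 1213 in ApcMin/+ adenomas (SD, n = 4 each). The lowest 2 values of all 8 libraries were those of ApcMin/+ replicates 1 and 4. The log2 difference of 0.41 (SE 0.30, 95% interval -0.28 to 1.10) did not pass (limma adjusted p = 0.48). Among the 5 libraries with low Xist, 3 knockout and 2 ApcMin/+, the difference was 0.81 and was called (limma adjusted p = 0.0282), in a fit that called 12.5% of all genes. Single libraries moved the value by over 1.5 times: leaving out ApcMin/+ replicate 1 gave 0.17, and leaving out replicate 2 gave 0.66 (limma adjusted p 0.723 and 0.135). The gene lies on chromosome 10, 115450311 to 115587780 (GRCm38, minus strand).

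Lgr4, the paralogous R-spondin receptor of the gut epithelium, had almost equal means in both genotypes. Its values were 9675, 12386, 11689 and 11346 in the knockout libraries, against 9667, 13117, 12173 and 9806 in ApcMin/+ replicates 1 to 4. The log2 difference was 0.02 (SE 0.15, limma adjusted p = 0.961), with a 95% interval from -0.32 to 0.35. With 4 libraries a group, the values are therefore compatible with any difference within these bounds. Lgr4 lies on chromosome 2, 109917647 to 110014257 (plus strand).

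Tnfrsf19 encodes TROY, a receptor that marks Lgr5-positive cells in the mouse intestine. Its values were 3270, 3112, 2688 and 2661 in the knockout libraries, against 2129, 3789, 3738 and 1941 in ApcMin/+ replicates 1 to 4. The knockout libraries all lay between the upper pair and the lower pair of ApcMin/+ libraries. The log2 difference was 0.08 (SE 0.24, 95% interval -0.46 to 0.62, limma adjusted p = 0.887). Restricted to the 5 low-Xist libraries, the difference was 0.57 and was called (limma adjusted p = 0.0321). That fit called 12.5% of all genes, and the ApcMin/+ libraries it kept were the lower pair. The gene lies on chromosome 14, 60963875 to 61046490 (minus strand).

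Ascl2, a basic helix-loop-helix transcription factor that maintains Lgr5-positive stem cells in the mouse, was lower in all 4 knockout adenomas. Its normalised read count was 711, 496, 565 and 450 in the knockout libraries, against 749, 1004, 952 and 826 in ApcMin/+ replicates 1 to 4. The means were 555.5 ± 114 in knockout and 882.8 ± 116 in ApcMin/+ adenomas (SD, n = 4 each), and the groups did not overlap. The log2 difference was -0.68 (SE 0.17, 95% interval -1.07 to -0.29, limma adjusted p = 0.13). The gap between the groups was narrow, from 711 in knockout replicate 2 to 749 in ApcMin/+ replicate 1. Relative to the mean log2 level of 12 epithelial genes, Ascl2 differed by -0.50 (limma adjusted p = 0.455) and the groups overlapped. This setting shifts every gene upward by the same amount, so members above 0 moved further from it. Olfm4 moved to 1.62 and Aqp4 to 1.78 (limma adjusted p 0.054 and 0.117). The 12 epithelial genes had a median log2 difference of -0.16, with 11 of 12 below 0, and a mean log2 level of 14.22 to 14.40 in knockout and 14.21 to 14.83 in ApcMin/+ libraries. Their part in the Ascl2 difference beyond this ratio was not tested. Ascl2 lies on chromosome 7, 142966829 to 142969264 (minus strand).

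Sox9, a transcription factor of crypt cells that is also expressed in Paneth and tuft cells, had slightly lower values in knockout adenomas. It had 7792, 6436, 7793 and 8935 in the knockout libraries, against 9226, 9990, 10416 and 8679 in ApcMin/+ replicates 1 to 4. Only the unnumbered knockout library and ApcMin/+ replicate 4 crossed. The log2 difference of -0.31 (SE 0.13) did not pass (limma adjusted p = 0.247), and relative to the epithelial genes it was -0.13. Paneth cell genes had a median log2 difference of 0.79 with 7 of 9 above 0. Tuft cell genes had a median of -1.03 with 7 of 7 below 0, and none of either list was called, against 0.331% of all genes. The part of these cells in the Sox9 difference was not tested. Sox9 lies on chromosome 11, 112782224 to 112787760 (plus strand).

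Olfm4, which encodes a secreted olfactomedin-domain glycoprotein abundant in crypt base columnar cells, was higher in all knockout adenomas. The 4 knockout libraries had counts of 3336, 3206, 1917 and 2664, against 1529, 691, 1094 and 872 in ApcMin/+ replicates 1 to 4. The means were 2781 ± 645 in knockout and 1046 ± 361 in ApcMin/+ adenomas (SD, n = 4 each), a ratio of 2.66, and the groups did not overlap. The log2 difference was 1.44 (SE 0.27, 95% interval 0.83 to 2.05). It did not pass over all genes (limma adjusted p = 0.0817), although only 0.622% of genes had a smaller p. Olfm4 lies on chromosome 14, 79984081 to 80023139 (plus strand).

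OLFM4 is also a granule protein of neutrophils, so neutrophil genes are given beside it. Of 8 neutrophil genes tested, 0 were called, against 0.331% of all genes, and 7 lay above 0. Among these 8, 6 did not overlap between genotypes, against 16.1% of all genes, and the median log2 difference was 1.68. The list was added after the values were seen, so this share is a description and no test. S100a8 had 845, 249, 461 and 261 in the knockout libraries, against 39, 59, 24 and 174 in ApcMin/+ replicates 1 to 4. Among knockout libraries, replicate 2 was highest for both Olfm4 and S100a8, and replicate 3 was second for Olfm4 but lowest for S100a8. The granule gene Ngp had 54, 25, 58 and 28 in the knockout libraries, against 0, 17, 1 and 8 in ApcMin/+ replicates 1 to 4. Retnlg, another gene of neutrophils, had 333, 112, 261 and 93 in the knockout libraries, against 19, 43, 19 and 77 in ApcMin/+ replicates 1 to 4. Neither overlapped between genotypes, with log2 differences of 3.22 and 2.35 (limma adjusted p 0.138 and 0.124). Ngp passed the filter on low values through its knockout libraries, and its ApcMin/+ values were mostly below 10. Camp, Elane and Mpo, also granule genes, were at 12 or below in every library, while Ltf, which epithelium also expresses, was between 6058 and 7954 in knockout and between 7609 and 12597 in ApcMin/+ libraries. Summed over the 11 listed genes, the values were 7271 to 10923 in knockout and 8093 to 12921 in ApcMin/+ libraries, most of it Ltf. Their part in the Olfm4 difference was not tested.

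The promoters of Olfm4 and Ascl2 are shown because these genes differed most in opposite directions among members in the RefSeq promoter table (GRCm38.p6), which matched 5 of the 10. Each window runs from 250 bases before to 50 bases after the start. The Olfm4 window lies inside the gene span given above, and the bases around 79984081, where that span begins, were not searched. Windows of the members were searched on both strands for the TCF/LEF motif CTTTGAT or CTTTGAA, found in 8.65% of 32851 promoters in the table, and for the E-box CAGCTG, found in 16.3%. Neither set of letters is in the Olfm4 or the Ascl2 window, nor in those of Lgr4 and Prom1. A second Tnfrsf19 start holds both, at 202 and 10 bases before the start, shown in capitals. A match describes these letters and no binding.
Olfm4, chr14:80000052-80000351, plus strand: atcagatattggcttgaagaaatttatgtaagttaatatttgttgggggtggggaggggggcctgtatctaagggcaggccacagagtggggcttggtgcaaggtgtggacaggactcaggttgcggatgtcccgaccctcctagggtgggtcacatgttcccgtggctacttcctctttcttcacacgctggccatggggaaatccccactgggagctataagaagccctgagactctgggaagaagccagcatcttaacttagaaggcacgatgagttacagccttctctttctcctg
Ascl2, chr7:142969215-142969514, minus strand: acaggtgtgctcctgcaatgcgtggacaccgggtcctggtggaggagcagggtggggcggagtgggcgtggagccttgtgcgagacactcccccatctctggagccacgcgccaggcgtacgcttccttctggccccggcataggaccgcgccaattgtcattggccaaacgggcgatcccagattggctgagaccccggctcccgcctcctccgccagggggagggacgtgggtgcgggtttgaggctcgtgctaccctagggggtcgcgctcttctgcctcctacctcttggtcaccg
Tnfrsf19, chr14:61037938-61038237, minus strand: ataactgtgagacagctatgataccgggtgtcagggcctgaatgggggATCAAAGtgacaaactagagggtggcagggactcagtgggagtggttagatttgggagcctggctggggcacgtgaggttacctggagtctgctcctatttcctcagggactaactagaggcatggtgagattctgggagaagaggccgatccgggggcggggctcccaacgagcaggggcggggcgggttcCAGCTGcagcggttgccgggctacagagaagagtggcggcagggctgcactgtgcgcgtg

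Smoc2, a secreted calcium-binding matrix protein that marks crypt base stem cells and is also made by stromal cells, overlapped between the genotypes. It had 5777, 3011, 4267 and 4830 in the knockout libraries, against 3444, 4855, 4027 and 4676 in ApcMin/+ replicates 1 to 4. Both the highest and the lowest value came from knockout libraries. The log2 difference was 0.05 (SE 0.21, 95% interval -0.43 to 0.52, limma adjusted p = 0.926). Fibroblast genes had a median log2 difference of 0.86 beside it, with 10 of 10 above 0 and 0 called, against 0.331% of all genes called. The gene lies on chromosome 17, 14279506 to 14404790 (plus strand).

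Prom1, which encodes the membrane glycoprotein prominin-1, was the most abundant of the 10 and was slightly lower in every knockout adenoma. It had 36177, 28584, 37786 and 33544 in the knockout libraries, against 40298, 39302, 39215 and 42712 in ApcMin/+ replicates 1 to 4. The groups did not overlap, but the log2 difference was only -0.25 (SE 0.15, 95% interval -0.60 to 0.09) and did not pass (limma adjusted p = 0.39). Relative to the epithelial genes it was -0.07. The groups overlapped in that setting and after quantile normalisation. An antisense gene that overlaps its exons, Gm16401, lay at 43 or below in every library. Prom1 lies on chromosome 5, 43993620 to 44102032 (minus strand).

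Msi1, an RNA-binding protein of stem and progenitor cells, had 995, 888, 906 and 960 in the knockout libraries, against 745, 1570, 1220 and 948 in ApcMin/+ replicates 1 to 4. All 4 knockout libraries lay within the range of the ApcMin/+ libraries. The SD of the log2 values was 0.08 in knockout and 0.46 in ApcMin/+ adenomas. The log2 difference was -0.20 (SE 0.22, 95% interval -0.69 to 0.29, limma adjusted p = 0.633). Leaving out ApcMin/+ replicate 1 gave -0.38, and leaving out replicate 2 gave -0.02. Msi1 lies on chromosome 5, 115429599 to 115455698 (plus strand).

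Aqp4, a water channel, was the least abundant of the 10 and had the largest ratio between genotypes. Its normalised read count was 151, 338, 206 and 131 in the knockout libraries, against 50, 79, 55 and 71 in ApcMin/+ replicates 1 to 4. The means were 206.5 ± 93.2 in knockout and 63.8 ± 13.5 in ApcMin/+ adenomas (SD, n = 4 each), a ratio of 3.24, with no overlap. The log2 difference of 1.60 (SE 0.33, 95% interval 0.86 to 2.35) did not pass (limma adjusted p = 0.0989). Knockout replicate 3 was the highest, and the other 3 knockout libraries lay closer together. Aqp4 lies on chromosome 18, 15389496 to 15410982 (minus strand).

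Glia and gastric parietal cells also express Aqp4, so their markers are given beside it. Enteric glia genes had a median log2 difference of 0.14, with 4 of 6 above 0 and 0 called, against 0.331% of all genes called. Sox10, a transcription factor of glia, was at 11 or below in every library. Of the stomach genes, the parietal cell gene Atp4a had 173, 1071, 233 and 640 in the knockout libraries, against 250, 394, 261 and 289 in ApcMin/+ replicates 1 to 4. Atp4a overlapped between genotypes, and Atp4b was likewise at 11 or below throughout. Knockout replicate 3 was highest for both Aqp4 and Atp4a, while the unnumbered knockout library was second for Atp4a and the lowest of the 4 for Aqp4. The stomach list was added after the values were seen. Over the 5 stomach genes tested the median log2 difference was -1.63, with 4 of 5 below 0, but the parietal cell gene Atp4a was above 0, at 0.47. Gkn1 and Muc5ac, among those below 0, were highest in ApcMin/+ replicate 1, at 87337 and 6797. The part of glia and stomach cells in the Aqp4 difference was not tested.

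**Figure D2:**
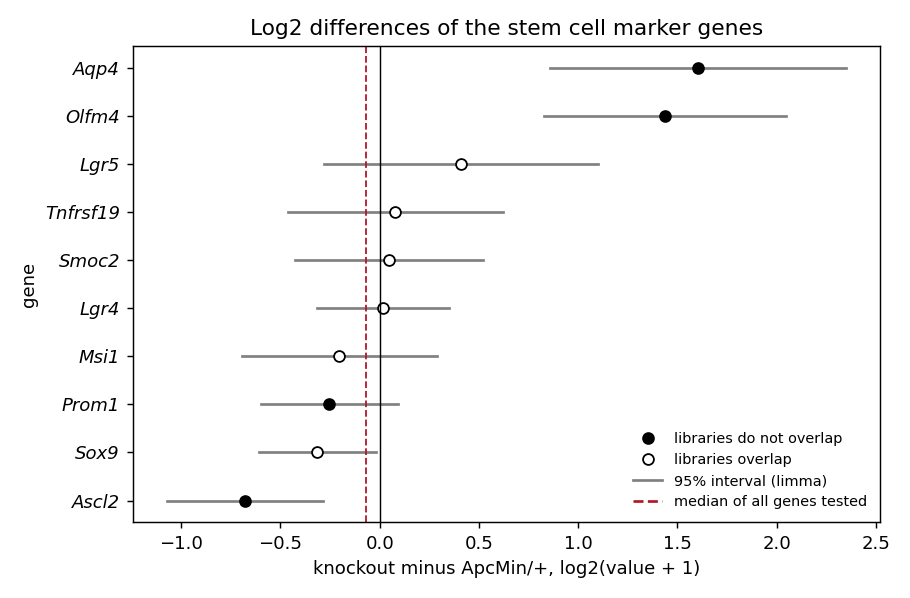
Log2 difference, knockout minus ApcMin/+, of each stem cell marker gene (points) with its 95% interval from limma (lines), filled where the libraries of the genotypes do not overlap. The intervals of Aqp4, Olfm4, Ascl2 and Sox9 exclude 0 before adjustment, and the dashed line marks the median of all genes tested, -0.07.

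Calls among the 10 genes changed with the model and with the libraries used. Within genotypes the deposited values hold almost no variation along 1 of 6 directions, as left by a normalisation that removes one, and the model carries it as a covariate. Without that covariate, 2 of 10 were called (Olfm4 at limma adjusted p = 0.0334 and Aqp4 at 0.0385), against 2.43% of all genes. Without ApcMin/+ replicate 1, Olfm4 was called (0.0275), 1 of 10 against 0.445%. Without ApcMin/+ replicate 2, Olfm4 and Aqp4 were called (0.0401 and 0.0429), 2 of 10 against 1.97%. In the 5 libraries with low Xist, 4 of 10 were called (Aqp4, Lgr5, Tnfrsf19 and Olfm4), all higher in knockout adenomas, against 12.5% of all genes. In these fits on fewer libraries no removed direction was found, so they lacked the covariate too. A gain in calls there cannot be told apart from the loss of the covariate. Leaving out ApcMin/+ replicate 3 or 4 also lost the covariate, and 0 of 10 were called. With 1 knockout library left out the covariate stayed, and 0 of 10 were called each time. Over 21 alternative settings Olfm4 was called in 4 (limma adjusted p from 0.0275 to 0.631) and Aqp4 in 3 (0.0241 to 0.665). With the library-name prefix as the covariate instead, they were at 0.319 and 0.333. Ascl2 was called in 0 of the 21, with adjusted p from 0.0565 to 0.665. For Olfm4, Aqp4 and Ascl2 the upper end came from the fit with array weights, whose estimation stopped before it converged.

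**Figure D3:**
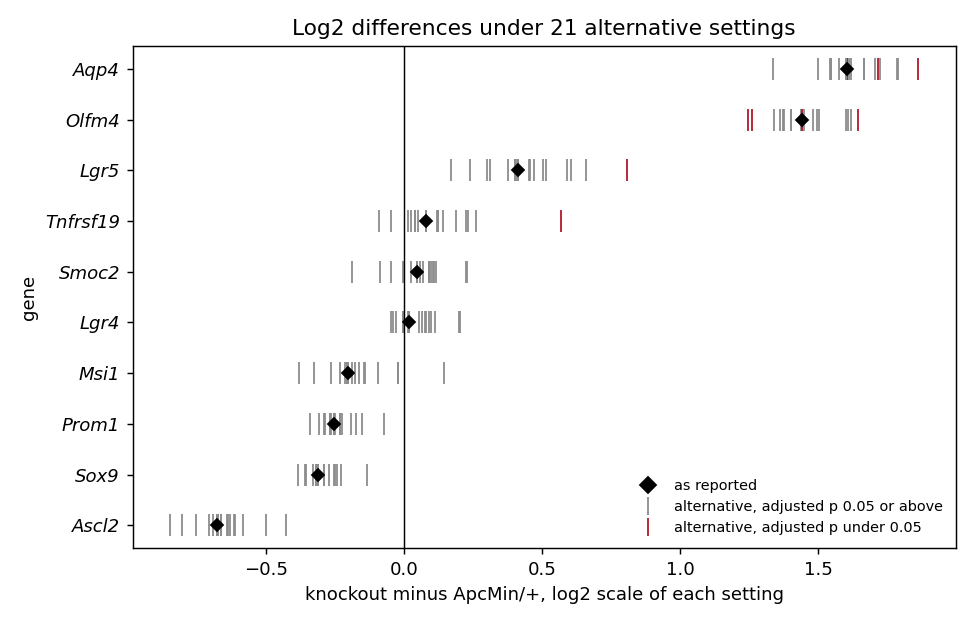
Log2 difference, knockout minus ApcMin/+, of each gene as reported (diamonds) and under 21 alternative settings (ticks, red where the limma adjusted p was under 0.05). Aqp4, Olfm4 and Lgr5 stay above 0 and Ascl2, Prom1 and Sox9 below 0 in all of them, while Lgr4, Smoc2, Tnfrsf19 and Msi1 cross 0.

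Ratios between members were compared in pairs, and none passed after adjustment. For each of the 45 pairs the log2 ratio within a library was compared between genotypes, which removes any scaling that a library's genes share. The ratio did not overlap between genotypes in 18 of 45 pairs, against 14.3% of all pairs of tested genes. Of the 18, 17 hold Aqp4, Olfm4 or Ascl2, which do not overlap on their own either. Each of the 18 had the smallest exact permutation p, 0.0286 (two-sided, 0.0714 after adjustment over 45 pairs). With 4 libraries a group, 0 pairs passed at 0.05 after adjustment. Aqp4 took part in 7 of the 18, and Olfm4 and Ascl2 in 6 each. The ratio of Olfm4 to Ascl2 was 1.76 to 2.69 on the log2 scale in knockout libraries and -0.54 to 1.03 in ApcMin/+ libraries, a difference of 2.12. The ratio of Lgr5 to Ascl2 was 2.37 to 3.26 in knockout and 1.07 to 2.11 in ApcMin/+ libraries, a difference of 1.09. Lgr4 to Ascl2 differed by 0.70, with the ApcMin/+ libraries all between 3.57 and 3.71 and the knockout libraries between 3.76 and 4.65. Pairs without Aqp4, Olfm4 or Ascl2 overlapped, except Lgr5 to Msi1 (1.65 to 2.17 in knockout and 1.08 to 1.46 in ApcMin/+ libraries). The normalisation used differences among replicates, so libraries are not exchangeable and these permutation p-values can be too small.

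**Figure D4:**
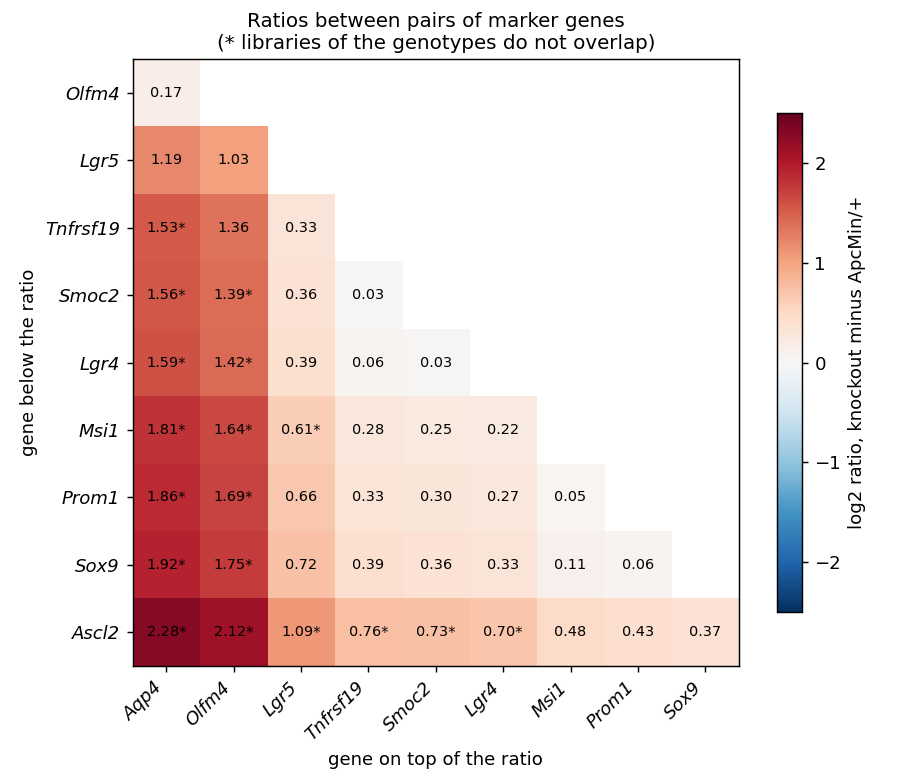
Difference between genotypes, knockout minus ApcMin/+, in the log2 ratio of the column gene to the row gene, for 45 pairs ordered by the genes' own log2 differences. Stars mark the 18 pairs whose ratios do not overlap between knockout and ApcMin/+ libraries, 17 of them with Aqp4, Olfm4 or Ascl2.

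Levels were compared between genes per kilobase of merged exons, with exon lengths from GENCODE M21. In knockout adenomas Prom1 was highest at 4742 ± 561 normalised reads per kilobase, followed by Lgr4 (1916 ± 196) and Sox9 (1872 ± 247), which overlapped each other (SD, n = 4 each). Olfm4 (939 ± 218), Smoc2 (643 ± 166) and Tnfrsf19 (619 ± 64.4) came next, and each overlapped its neighbour. Ascl2 (342 ± 70.2) and Lgr5 (340 ± 65.8) overlapped, and Msi1 (162 ± 8.48) and Aqp4 (33.1 ± 15.0) were lowest. In ApcMin/+ adenomas Prom1 was again first at 5628 ± 227 and Aqp4 last at 10.2 ± 2.17. Olfm4 was at position 4 of 10 in knockout adenomas and at position 7 in ApcMin/+ adenomas, where its level was 353 ± 122.

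Within ApcMin/+ adenomas the members split along a shared line. Lgr5, Ascl2, Lgr4, Msi1, Tnfrsf19 and Sox9, 6 of 10, were higher in both replicates 2 and 3 than in both replicates 1 and 4, as were 23.5% of all genes tested. Prom1 was lower in both, as were 36.4% of all genes. Replicates 2 and 3 are the ApcMin/+ libraries with high Xist. Of 18 Wnt target genes tested, 15 were higher in replicates 2 and 3, Axin2, Lef1 and Notum among them. Axin2, a feedback inhibitor and common readout of the pathway, had 6649, 6981, 6491 and 5624 in the knockout libraries, against 4778, 9132, 8166 and 4973 in ApcMin/+ replicates 1 to 4. Of 10 fibroblast genes, 8 were higher in replicates 2 and 3 and 0 lower, Col1a1 and Pdgfra among the 8, and their part in the order of the members was not tested. By contrast, 11 of 12 epithelial genes and 9 of 10 enterocyte genes were lower in replicates 2 and 3. Proliferation genes did not follow the line, with 0 of 16 higher and 1 lower in both. In the knockout library with high Xist, Lgr5 was the highest of the 4 at 4334 but Tnfrsf19 the lowest at 2661. The direction along which the deposited values do not vary set replicates 1 and 2 against 3 and 4, which is also the split by library-name prefix. In 89.4% of all genes tested both of these pairs have 1 library on each side of the group mean. An order of this kind is therefore partly set by construction, and no test was made of it.

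The spread within genotypes differed among members, with the larger SD of the log2 values in knockout adenomas for 5 of 10 and in ApcMin/+ adenomas for the other 5. The direction removed by the normalisation lay mostly among the ApcMin/+ libraries. Their SD lacks that part of the spread, so the SDs of the genotypes are not directly comparable. The SD was 0.28 in knockout and 0.64 in ApcMin/+ adenomas for Lgr5, 0.15 and 0.52 for Tnfrsf19, 0.36 and 0.49 for Olfm4, 0.08 and 0.46 for Msi1, and 0.15 and 0.22 for Lgr4. In ApcMin/+ adenomas Lgr5, Tnfrsf19, Olfm4 and Msi1 had a larger SD than 87.6%, 81.5%, 79.6% and 77.9% of all genes. The knockout SD was the larger one for Aqp4 (0.60 in knockout and 0.30 in ApcMin/+), Smoc2 (0.40 and 0.23), Ascl2 (0.29 and 0.19), Sox9 (0.19 and 0.12) and Prom1 (0.18 and 0.06). The median over all genes was 0.19 in knockout and 0.25 in ApcMin/+ adenomas.

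Other stem cell genes were not called between genotypes. Of 26 listed, 0 passed, 12 lay above 0 and the median log2 difference was -0.01. Since only 0.331% of all genes were called, 0 calls in lists of this size say little about their genes. Bmi1, a Polycomb protein used as a marker of reserve stem cells, had 1474, 1602, 1452 and 1518 in the knockout libraries, against 1149, 1288, 1283 and 1110 in ApcMin/+ replicates 1 to 4, with no overlap (log2 difference 0.33, limma adjusted p = 0.158). Gkn3, a gastrokine expressed in mouse crypt base cells, averaged 16915 ± 3103 in knockout and 35709 ± 18354 in ApcMin/+ adenomas (SD, n = 4 each; log2 difference -0.95, limma adjusted p = 0.224). Its groups overlapped, since ApcMin/+ replicate 2 was at 16795.

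The genes around the R-spondin receptors and downstream of Wnt were not called either. Of 12 R-spondin and Wnt receptor genes tested, 0 were called, against 0.331% of all genes, and 6 lay above 0. Wnt3, a ligand made by Paneth cells, had a log2 difference of 0.71 (limma adjusted p = 0.305) and the coreceptor gene Lrp6 one of 0.21 (0.363). Of 18 Wnt target genes, 0 were called and the median was -0.01. Myc, a transcription factor that drives growth, had 2555, 2642, 3074 and 2526 in the knockout libraries, against 3216, 4653, 4367 and 3325 in ApcMin/+ replicates 1 to 4. The Myc groups did not overlap (log2 difference -0.51, limma adjusted p = 0.148). Prox1, a homeobox factor of Wnt-active tumours, had a difference of 0.44 (limma adjusted p = 0.433). Of 16 proliferation genes 0 were called, with a median of -0.02, Bub1 at 0.36 and Pcna at 0.19 (limma adjusted p 0.272 and 0.472).

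Genes of the regenerating or fetal-like state of the gut, in which Lgr5 is low, were mostly below 0. Of 15 listed, 0 were called, against 0.331% of all genes. Of these 15, 12 had lower means in knockout adenomas and the median was -0.33. Msln, which encodes mesothelin, had 245, 437, 404 and 349 in the knockout libraries, against 701, 980, 775 and 866 in ApcMin/+ replicates 1 to 4. Its groups did not overlap, and it did not pass the threshold (log2 difference -1.23, limma adjusted p = 0.059). Clu, a marker of revival stem cells in the mouse intestine, lay between 85045 and 101709 in knockout and between 123729 and 209920 in ApcMin/+ libraries (-0.75, limma adjusted p = 0.193). Gja1, a gap junction gene that stromal cells also express, had a difference of 0.64 (limma adjusted p = 0.165).

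**Figure D5:**
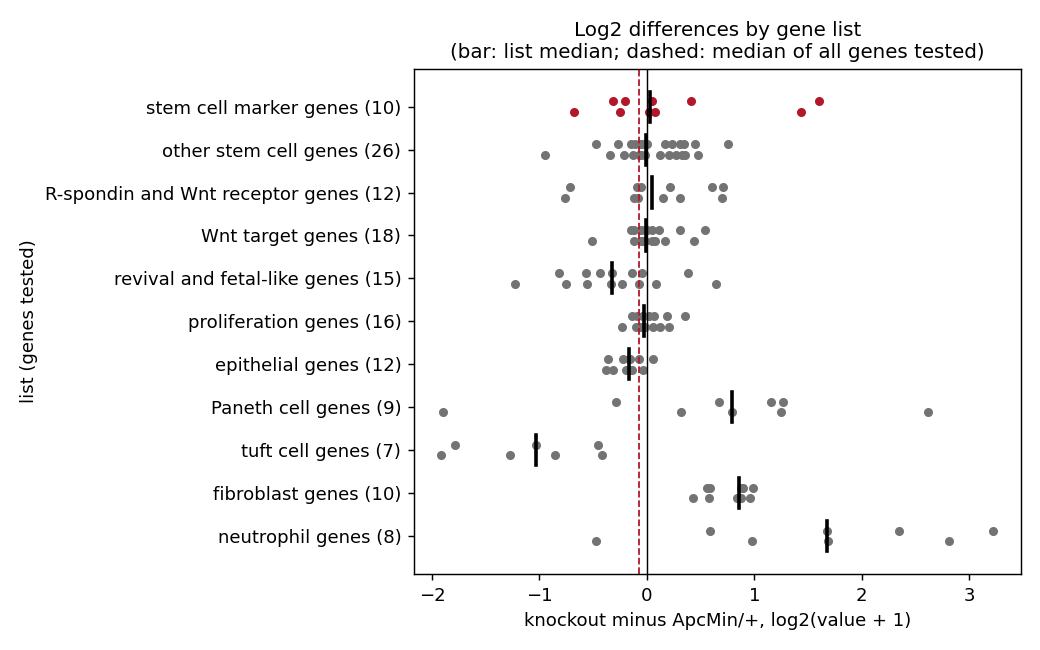
Log2 difference, knockout minus ApcMin/+, of every tested gene in 11 lists (points), with the list median (bar) and the median of all genes tested (dashed, -0.07). The stem cell marker genes spread from -0.68 to 1.60 around a median of 0.03, and the other stem cell, Wnt target and proliferation lists have medians between -0.02 and -0.01.

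Differentiated and stromal cell lists had 0 genes called, against 0.331% of all genes. Enterocyte genes had a median log2 difference of 0.62, with 9 of 10 above 0, and goblet cell genes one of 0.22, with 6 of 8 above 0. Enteroendocrine genes had a median of -0.15 and 2 of 7 above 0. Smooth muscle genes lay below 0 in 8 of 8 (median -0.22) and endothelial genes above 0 in 6 of 6 (median 0.27). Leukocyte genes were split, 4 of 6 above 0 with a median of 0.08. Of genes that mark position along the gut, 3 of 7 proximal ones lay above 0 (median -0.09) and 4 of 6 distal ones (median 0.15). The part of these cells in the differences of the 10 genes was not tested.

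The genes with the most similar patterns were found for Lgr5 and for the members with the highest and the lowest log2 difference, Aqp4 and Ascl2, by the mean absolute difference of centred log2 values over the 8 libraries. Those nearest to Lgr5 among 11701 genes were Rnf180, Inhbb and Map9, at 0.13, 0.14 and 0.14. Those nearest to Aqp4 were Ednrb, Zfp97 and Ccbe1, at 0.20, 0.27 and 0.30. Those nearest to Ascl2 were Stmn1, Thap3 and Grcc10, at 0.04, 0.08 and 0.10. Stmn1, which encodes the microtubule regulator stathmin, had 6610, 4844, 5433 and 4341 in the knockout libraries, against 7186, 10189, 9087 and 8521 in ApcMin/+ replicates 1 to 4. Its libraries ranked in the same order as those of Ascl2. Among the members themselves, Prom1 and Sox9 were nearest to each other at 0.13 and Ascl2 and Aqp4 farthest apart at 1.14.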

How the data were processed

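RNA-seq of 8 mouse adenomas, 4 per genotype, was deposited as a sheet of RUVs-normalised read counts, treated here as scores because the deposited values are whole numbers although normalised. Reads were mapped to mm10, per the submitters' processing notes; the aligner, counter, annotation, strand setting and RUVs settings were not given in the sources used here. Depth is therefore unknown, and a count model was not used. In addition, 27 rows with date names were left out of the tests.

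Values were tested as log2(value + 1) in limma 3.58.1 (R 4.3.3) on the 17523 genes that reached 10 in 4 or more libraries, with Benjamini-Hochberg adjustment over all of them. Judged from the values, 1 of 6 within-group directions had been removed by the normalisation; it entered the model as a covariate and left 5 residual degrees of freedom. Single values and ratios were compared by exact permutation over 70 arrangements. The fit was tested on simulated data. The labels give 1 mouse per library, so p-values measure the spread between these mice that remained after the normalisation. The removed direction lay mostly among the ApcMin/+ libraries.

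The 10 members and the gene lists were chosen with earlier results of these data known, and the neutrophil and stomach lists were added after the values were seen. From each list the 2 genes with the smallest p were eligible to be named; Epcam, Xist, Gm16401, Ngp, Retnlg, Ltf, Camp, Elane, Mpo, Sox10, Atp4a, Atp4b, Axin2, Lef1, Notum, Col1a1, Pdgfra and Clu were named besides, after their values were seen. Genes of similar pattern were taken 3 per gene from those averaging 7 or more on the log2 scale. Alternatives changed the pseudocount, filter, scaling, covariates, weights and libraries.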

Additional observations from a re-analysis of the deposited data

Results flagged for a closer look

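In 118 groups of 4 libraries checked for a library far from the others, 1 was flagged, and 0 of the 20 groups of the stem cell marker genes. Cubn, which encodes the endocytic receptor cubilin and is on the proximal small intestine list, was at 154 in ApcMin/+ replicate 4 and between 212 and 226 in the other 3 ApcMin/+ libraries, a gap of 0.833 of the group's range on the log2(value + 1) scale. For 4 independent values, chance flags about 1 in 20 groups. The ApcMin/+ libraries are not independent of each other after the normalisation, so that rate need not hold for their groups.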

How the results depend on the processing

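Of the 10 genes, 6 kept their direction in all 21 alternative settings. The count called, 0 as reported, was 2 without the covariate for the removed direction and 4 in the low-Xist libraries. It ranged from 0 to 2 when 1 library was left out. Every fit with a count above 0 lacked that covariate. So did the fits without ApcMin/+ replicate 3, without replicate 4 and on the 6 libraries with the shared prefix, where the count was 0. Members without overlap were 2 relative to the epithelial genes and 3 after quantile normalisation, where Prom1 overlapped, against 4 as reported. Pairs without overlap were 32 in the low-Xist libraries, where only 3 knockout and 2 ApcMin/+ libraries remain, against 18 as reported. Smaller groups overlap less often, and shares over all genes or pairs were not computed in these settings. These counts therefore cannot be read as a result about the members. Smoc2 turned to -0.19 with array weights, whose estimation stopped before it converged, Lgr4 to -0.00419 with the library-name prefix as a covariate and also in the 6 libraries with the shared prefix, and Msi1 to 0.14 in the low-Xist libraries. With 1 library left out, Lgr5 ranged from 0.17 to 0.66, Msi1 from -0.38 to -0.02, Smoc2 from -0.0894 to 0.22, Lgr4 from -0.0485 to 0.0982 and Tnfrsf19 from -0.0917 to 0.23. The cause was not tested. The setting relative to the epithelial genes moved the median of all genes to 0.108, from -0.07.

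No paired analysis was possible because the labels number mice and give no replicate numbers shared between genotypes. Depth is unknown, so low values such as those of Aqp4 carry counting error that was not estimated.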
